A study of Mus musculus with 6 samples.

Results

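The YAP and TAZ transcriptional module was described across 6 arrays of mouse embryonic liver. Its 10 genes are the co-activators Yap1 and Wwtr1 (the gene of TAZ), the TEAD factors Tead1, Tead2, Tead3 and Tead4, and the target genes Ctgf, Cyr61, Ankrd1 and Amotl2. They were found by their symbol in the array annotation, and are 10 of the 20678 genes that had a probe set of their own. Together they had 19 probe sets, and 6 of the genes had more than 1.

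Livers were from wild-type C57Bl6 embryos at E12.5. The 4 fractions were PDPN+, PDPN-, ITGA8+ and ITGA8- cells, all of which were also ALCAM+, and they were set beside ALCAM+ cells and liver cells. ALCAM is an adhesion molecule of the immunoglobulin family, PDPN is podoplanin, a surface glycoprotein of mesothelium, and ITGA8 is the integrin alpha 8 chain, which the series uses to isolate a stellate cell population. There was 1 array per group, so no spread between samples could be computed, no test was run, and each difference is one between 2 arrays.

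In the Hippo pathway, kinases encoded by Stk3 and Stk4 activate the kinases encoded by Lats1 and Lats2, which phosphorylate YAP and TAZ and keep them out of the nucleus. Unphosphorylated YAP and TAZ enter the nucleus and act with TEAD factors, which bind DNA, to switch on genes such as Ctgf and Cyr61. The pathway acts on liver size, and in mesenchymal cells YAP is known for its part in stellate cell activation. The arrays measured RNA and not the phosphorylation or location of these proteins.

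Promoter windows are shown because YAP and TAZ reach their target genes through TEAD factors bound to DNA. RefSeq windows (GRCm38.p6) ran from 250 bases before to 50 bases after the start site. They were matched by gene symbol for 7 of the 10 genes, and Ctgf, Tead1 and Tead4 did not match. The TEAD core motif GGAATG, searched on both strands, is in capitals in the windows of the 3 matched target genes, as GGAATG or, on the other strand, as CATTCC. Cyr61 lies on the minus strand (chr3:145649936-145650235), Amotl2 on the plus strand (chr9:102717554-102717853) and Ankrd1 on the minus strand (chr19:36119795-36120094).
Cyr61: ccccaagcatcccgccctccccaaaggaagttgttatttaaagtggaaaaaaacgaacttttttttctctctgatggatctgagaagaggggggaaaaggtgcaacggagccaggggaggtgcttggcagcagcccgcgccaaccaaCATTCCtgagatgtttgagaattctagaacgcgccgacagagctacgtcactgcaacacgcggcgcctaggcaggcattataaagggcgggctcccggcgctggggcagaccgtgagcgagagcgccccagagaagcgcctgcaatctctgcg
Amotl2: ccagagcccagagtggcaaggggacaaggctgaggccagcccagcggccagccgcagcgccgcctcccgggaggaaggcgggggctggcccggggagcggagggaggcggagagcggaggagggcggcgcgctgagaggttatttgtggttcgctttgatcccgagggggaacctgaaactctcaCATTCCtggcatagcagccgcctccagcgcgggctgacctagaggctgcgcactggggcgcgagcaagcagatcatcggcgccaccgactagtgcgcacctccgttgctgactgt
Ankrd1: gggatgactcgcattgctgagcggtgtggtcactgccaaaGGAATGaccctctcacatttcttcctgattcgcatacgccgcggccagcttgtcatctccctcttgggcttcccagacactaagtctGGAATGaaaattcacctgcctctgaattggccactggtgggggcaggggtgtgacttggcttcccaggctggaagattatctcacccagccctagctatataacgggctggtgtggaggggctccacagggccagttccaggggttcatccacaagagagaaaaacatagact
Cyr61 and Amotl2 each held 1 copy, and Ankrd1 held 2. Counting back from the start site, the first base of the copy was at -103 in Cyr61 and at -65 in Amotl2, and the Ankrd1 copies began at -210 and -123. The motif was in 14.7% of the 32851 promoter windows in the table, and 1.36% had 2 or more copies. The 7 matched genes had 10 windows, of which those of Wwtr1 overlap each other, as do some of Tead3, and 8 of the 10 held a copy. These were windows of Cyr61, Amotl2, Ankrd1, Yap1, Wwtr1 and Tead3, while the Tead2 window held none. The AP-1 motif TGANTCA and the cyclic AMP response element TGACGTCA, also searched on both strands, were in 0 of the 10 windows of these genes, against 7.81% and 1.79% of all windows. These are matches of letters only.

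The arrays were not on 1 scale. The 4 fraction arrays had a mean of 996 to 997 after trimming 2% at each end, while the ALCAM+ array had 330.6 and the liver array 196.0, so levels were ordered only within the 4 fractions. The floor used to call a gene measured was the median of all values, an intensity of 109.0, and from 13359 genes (ITGA8+) down to 8406 genes (liver) were above it. The sort markers went with the labels. Itga8 was at 4354 in ITGA8+ cells and 871 in ITGA8- cells, Pdpn at 7746 in PDPN+ cells and 117 in PDPN- cells, and Alcam at 13425 in ALCAM+ cells and 3207 in liver cells. Intensities of different genes depend on their probes and were not compared with each other.

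Yap1 was the steadiest of the genes across the 4 fractions. It was at 6433 in PDPN+ cells, 6296 in PDPN- cells, 8096 in ITGA8+ cells and 6938 in ITGA8- cells. The highest of these was 1.29-fold over the lowest, and 6.72% of the 14503 genes above the floor in a fraction had no wider a span. The first probe set put both ITGA8 fractions above both PDPN fractions. A second one put them below, at 515 in PDPN+ cells, 454 in PDPN- cells, 316 in ITGA8+ cells and 434 in ITGA8- cells. The 2 probe sets gave no common order of the fractions.

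Of the 9 genes above the floor in a fraction, 8 spanned 2-fold or more over the 4 fractions, as did 57.7% of all genes. The widest span was that of Ctgf, at 13.2-fold. For Wwtr1, Tead1, Ctgf and Amotl2 the PDPN- array was the lowest of the 4 fractions, as it was for Tead2 and Tead3. For Cyr61 by its highest probe set the ITGA8+ array was lowest, and for Ankrd1 the PDPN+ array. Over all probe sets the PDPN- array also had the lowest median of the 4 fractions, 123 against 173 to 200. The share of all genes that were lowest in it was not counted.

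**Figure D1:**
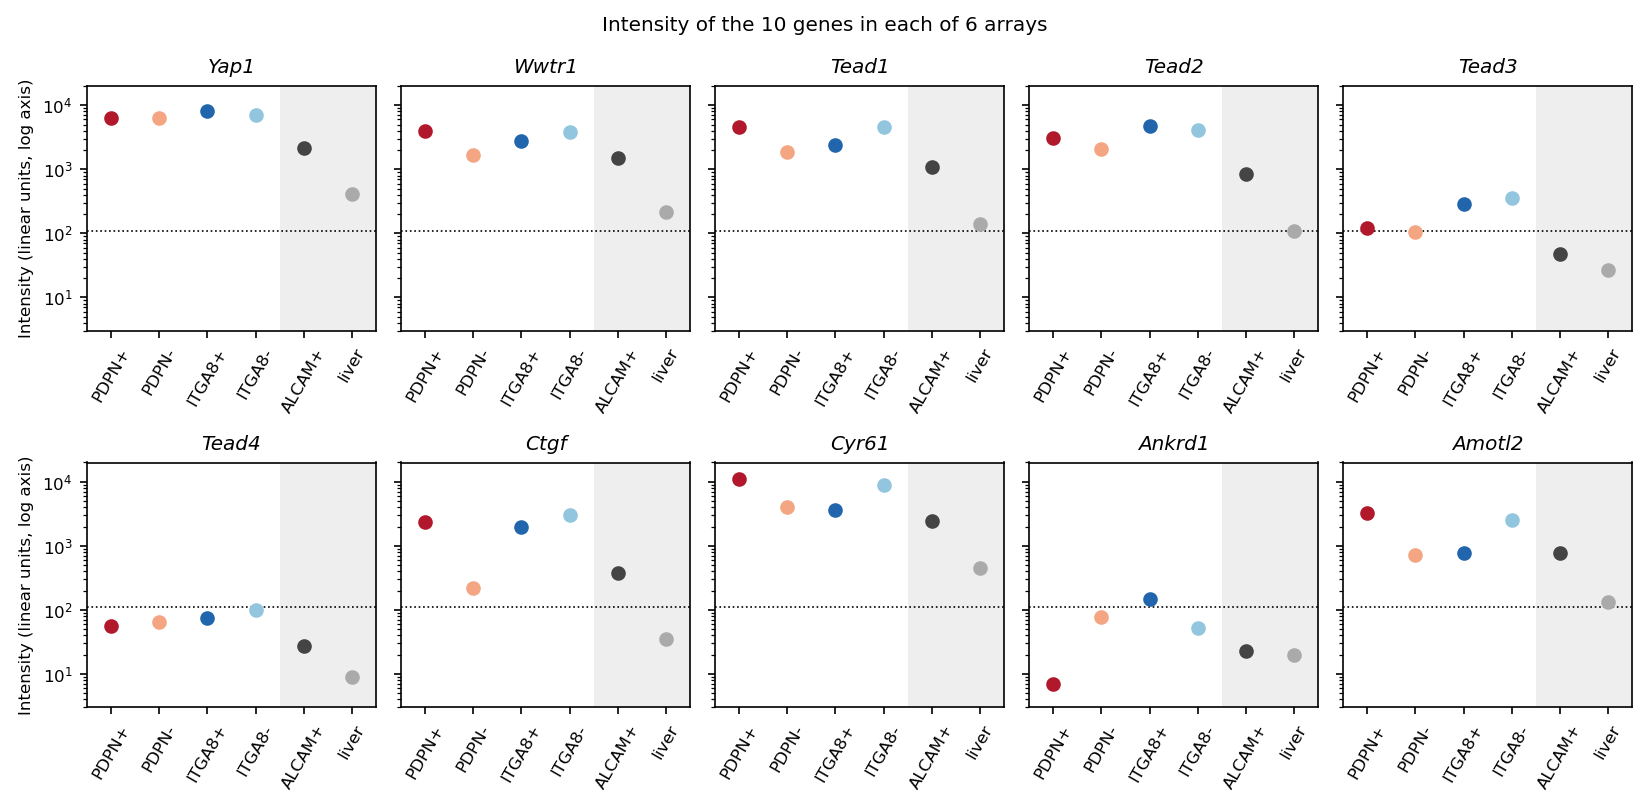
Intensity of each of the 10 genes by the probe set that stands for it, in linear units on a log axis, 1 point per array. White background marks the 4 fraction arrays, grey background the ALCAM+ and liver arrays that are on another scale, and the dotted line the floor of 109.0. Yap1 is level across the fractions, while Ctgf is at 219 in PDPN- cells and between 1967 and 3077 in the other fractions.

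PDPN+ cells were compared with PDPN- cells to see how podoplanin divides ALCAM+ cells. Of the 8 genes above the floor, 5 were at least 2-fold higher in PDPN+ cells and 0 were lower, against 19.9% higher and 7.89% lower among all 13428 genes above the floor. The 5 were Wwtr1, Tead1, Ctgf, Cyr61 and Amotl2. The median over the 8 genes was 1.24 on the log2(intensity + 16) scale, against 0.04 over all genes. The difference for Yap1 was 0.03. Higher genes made up 71.6% of all genes past 2-fold, and 59.5% with quantile normalisation, under which the same number of the 10 genes, 5, was past 2-fold. Folds on this scale understate the difference of genes with low values.

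Among the co-activators, Wwtr1 was at 3947 in PDPN+ cells and 1700 in PDPN- cells, 2.31-fold higher. Its other probe sets were at 280 in PDPN+ cells against 111 in PDPN- cells, and at 249 against 96. The 3 log2 differences lay between 1.21 and 1.24, a range of 0.03, while the median range among 1489 genes with 3 probe sets above the floor was 0.69. The PDPN- value of 111 lay just over the floor and that of 96 under it, so the narrow range depends on the pseudocount. TAZ and YAP are paralogous co-activators, and here the RNA of TAZ differed between the fractions while that of YAP did not reach 2-fold on either probe set.

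Of the TEAD factors, Tead1 was at 4557 in PDPN+ cells and 1866 in PDPN- cells, 2.43-fold higher, and its second probe set was at 788 and 325, 2.36-fold higher. Tead2, which is known from early mouse embryos, was at 3106 in PDPN+ cells and 2057 in PDPN- cells, 1.51-fold higher and short of 2-fold. Tead3 was close to the floor, at 121 in PDPN+ cells and 105 in PDPN- cells. Its log2 difference of 0.18 turned to -0.25 with quantile normalisation and to -0.23 with loess. Tead4, known for its part in the trophectoderm, was under the floor in both fractions, at 55 in PDPN+ cells and 64 in PDPN- cells on one probe set and 73 and 19 on the other.

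The target genes had the largest differences of the 10. Ctgf, a secreted matricellular protein also called CCN2, was at 2354 in PDPN+ cells and 219 in PDPN- cells, 10.1-fold higher. It had 1 probe set. Amotl2, an angiomotin family member that binds YAP and is itself a target, was at 3263 in PDPN+ cells and 715 in PDPN- cells, 4.49-fold higher, also on 1 probe set.

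Cyr61, a matricellular protein also called CCN1, had 4 probe sets, and all were 2.82-fold to 3.44-fold higher in PDPN+ cells. They were at 11210, 6064, 1892 and 1854 in PDPN+ cells, and in the same order at 3971, 1749, 607 and 644 in PDPN- cells. Ankrd1, a nuclear ankyrin repeat protein of heart muscle and a target of YAP, did not share this direction, with 7 in PDPN+ cells and 78 in PDPN- cells, both under the floor. By probe set, 11 of the 15 above the floor were 2-fold higher in PDPN+ cells and 0 lower, against 18.7% higher and 7.67% lower of all 23658 probe sets.

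Markers of several cell types differed between these 2 arrays in the same direction. All 12 mesothelial markers were 2-fold higher in PDPN+ cells, with a summed intensity of 65004 in PDPN+ cells and 1580 in PDPN- cells. The 12 include Pdpn, on which these cells were sorted, at 7746 in PDPN+ cells and 117 in PDPN- cells. All 8 macrophage markers (26702 in PDPN+ cells and 380 in PDPN- cells), all 8 megakaryocyte markers (27846 and 175) and all 5 endothelial markers above the floor (4691 and 484 over 8) were also higher. Of 11 dissociation stress genes above the floor 4 were higher (68246 and 48562 over 12), as were 4 of 6 smooth and cardiac muscle genes (15589 and 2990 over 9) and 1 of 7 erythroid genes (6368 and 3662 over 8). Of 12 stellate markers 1 was higher and 3 lower (30611 and 41252), and of 8 hepatoblast markers 1 was lower (140513 and 164581). Apart from Cd68 (147) and Tek (221), the macrophage, megakaryocyte and endothelial markers counted were under the floor in PDPN- cells. They entered only through the PDPN+ array where they were high, as did some markers of other lists. No marker was at 0 in either array. In sorted bulk RNA, fewer cells of a type and less RNA per cell cannot be told apart, and the part of these cell types in the differences of the YAP and TEAD genes was not tested.

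ITGA8+ cells were compared with ITGA8- cells, the division by the integrin that the series names. Of the 9 genes above the floor, 2 were at least 2-fold lower in ITGA8+ cells, Cyr61 and Amotl2, and 1 was higher, Ankrd1. Among all 13874 genes above the floor, 5.98% were lower and 5.36% higher. The median over the 9 genes was -0.43, against 0.00 over all genes. That median is the value of the highest probe set of Wwtr1, whose other probe sets were at 0.45 and 1.04. Higher genes made up 47.3% of all genes past 2-fold, and 60.2% with quantile normalisation, under which Amotl2 was at -1.55 and Cyr61 at -1.45.

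Amotl2 was at 785 in ITGA8+ cells and 2510 in ITGA8- cells, 3.15-fold lower. Ctgf was at 1967 in ITGA8+ cells and 3077 in ITGA8- cells, 1.56-fold lower and short of 2-fold. Ankrd1 was at 150 in ITGA8+ cells and 52 in ITGA8- cells, 2.44-fold higher, and its other probe set was under the floor at 57 and 22. Ankrd1 was above the floor in ITGA8+ cells only, and its log2 difference of 1.29 was 0.88 with a pseudocount of 64. With a floor of 2 times that value (1.29) and with quantile normalisation (1.35) it stayed past 2-fold but was under the floor, so it was not counted. In both probe sets the order of the 4 fractions was ITGA8+, PDPN-, ITGA8- and PDPN+, from high to low.

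Among the factors, Tead1 was at 2420 in ITGA8+ cells and 4560 in ITGA8- cells, 1.88-fold lower, and at 581 and 839 on its second probe set. Tead2 was at 4781 in ITGA8+ cells and 4126 in ITGA8- cells, and Tead3 at 292 and 356. Tead4 was at 75 in ITGA8+ cells and 98 in ITGA8- cells on one probe set, and at 63 and 142 on the other, which reached the floor in ITGA8- cells only and lay at the 2-fold limit. Tead1 therefore stood lower with integrin alpha 8 and Tead2 slightly higher, with neither past 2-fold.

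The probe sets of Wwtr1 went apart in this comparison. Its highest was at 2817 in ITGA8+ cells and 3795 in ITGA8- cells, a log2 difference of -0.43. The others were at 270 in ITGA8+ cells against 193 in ITGA8- cells (0.45) and at 267 against 122 (1.04). No direction can be given for Wwtr1 here, although the same 3 probe sets differed alike between PDPN+ and PDPN- cells.

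**Figure D2:**
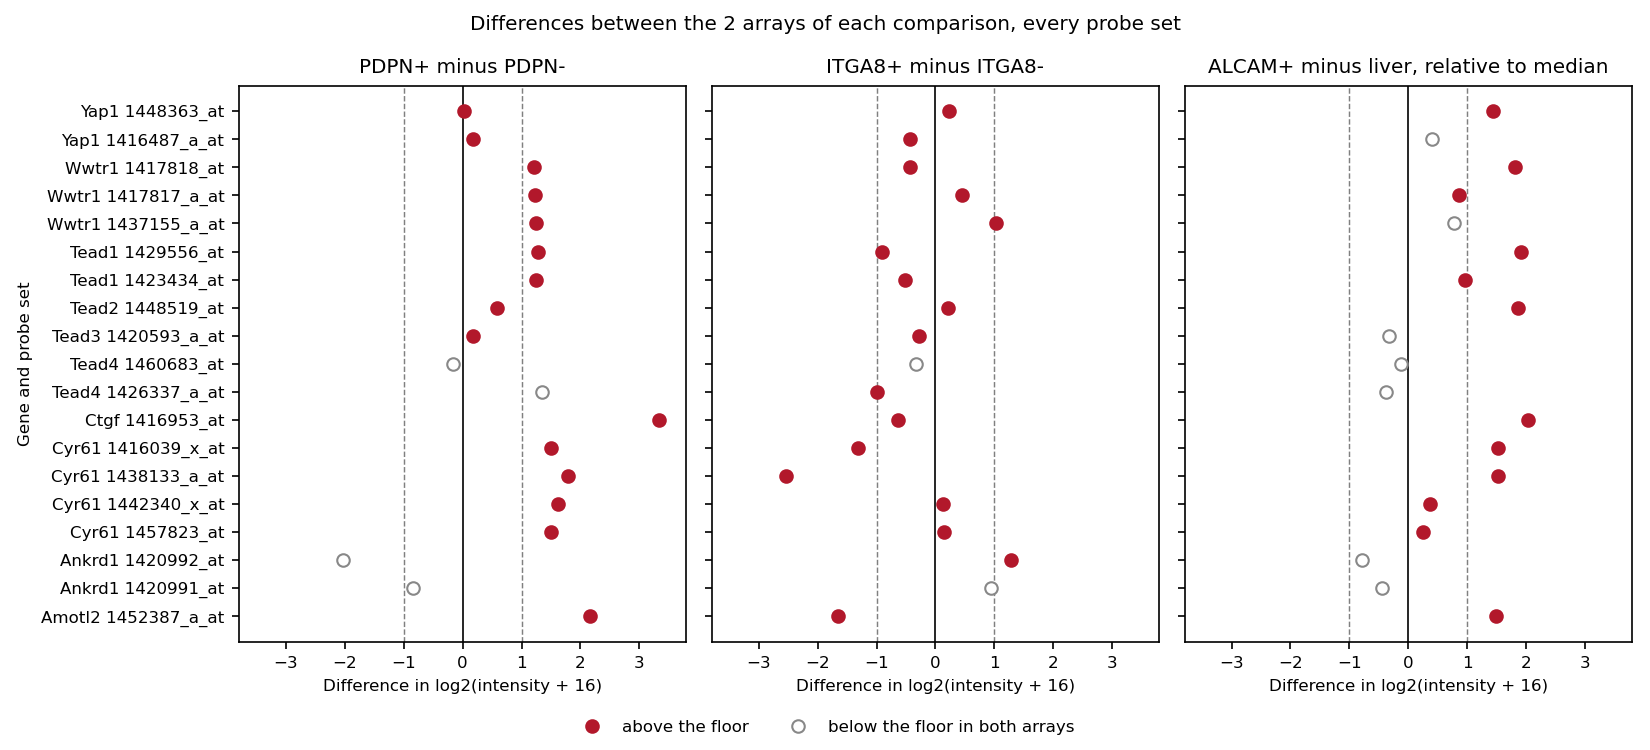
Difference in log2(intensity + 16) between the 2 arrays of each comparison for all 19 probe sets, with filled points above the floor and open points below it in both arrays, and dashed lines at 2-fold. Differences of ALCAM+ minus liver are relative to the median of all genes. Those of Wwtr1 and of Cyr61 lie together in PDPN+ minus PDPN- and apart in ITGA8+ minus ITGA8-, and the open points of Tead4 (-0.17 and 1.35) and Ankrd1 (-2.03 and -0.84) lie apart in PDPN+ minus PDPN-.

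The probe sets of Cyr61 fell into 2 pairs within the ITGA8 sort, of which one was lower in ITGA8+ cells and the other within 2-fold. Probe set 1438133_a_at was at 882 in ITGA8+ cells and 5213 in ITGA8- cells, 5.82-fold lower, and 1416039_x_at at 3561 in ITGA8+ cells and 8842 in ITGA8- cells, 2.48-fold lower. Probe set 1442340_x_at was at 4750 in ITGA8+ cells and 4358 in ITGA8- cells, and 1457823_at at 4598 and 4142, 1.09-fold and 1.11-fold higher. The first pair was highest in PDPN+ cells and lowest in ITGA8+ cells. The other pair was highest in ITGA8+ cells and lowest in PDPN- cells.

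The log2 differences of the 4 Cyr61 probe sets ranged over 2.69, from -2.54 to 0.15. The median range was 1.03 among 638 genes with 4 probe sets above the floor, and 1.10% of those genes had as wide a range. In PDPN+ against PDPN- cells the range of the same 4 probe sets was 0.29, against a median of 0.88 among 623 such genes. Where in the transcript each probe set lies was not used here. The call of Cyr61 as lower in ITGA8+ cells thus rests on the choice of probe set. Over the 10 genes, 4 of 17 probe sets above the floor were 2-fold lower in ITGA8+ cells and 2 higher, against 8.06% and 4.29% of all 24398 probe sets.

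**Figure D3:**
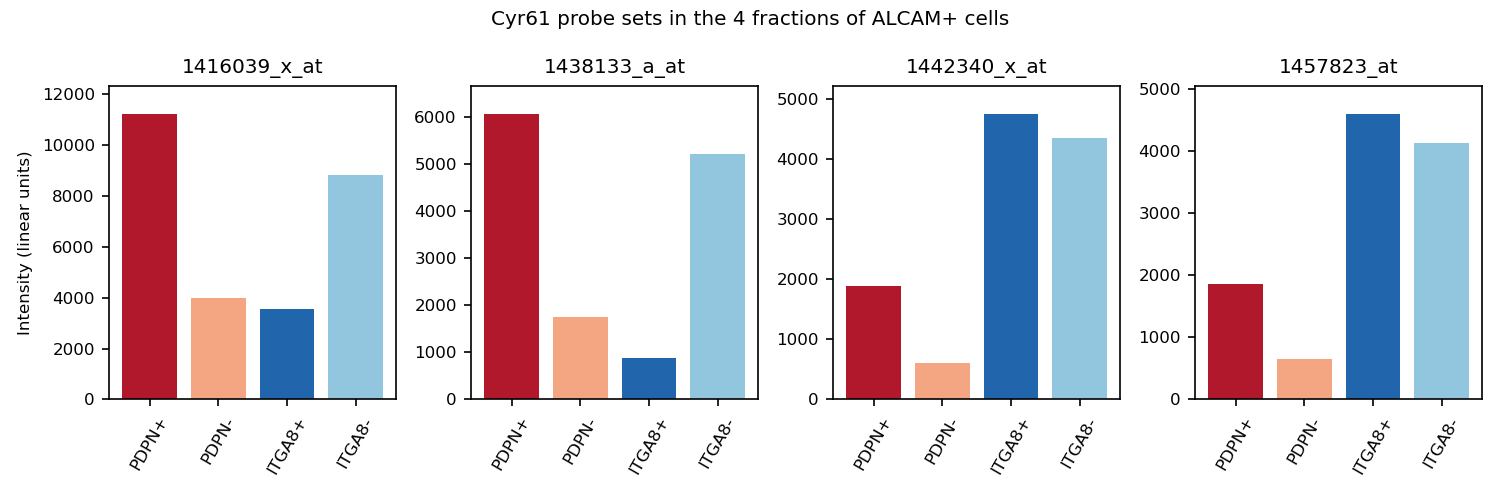
Intensity in linear units of the 4 probe sets of Cyr61 in the PDPN+, PDPN-, ITGA8+ and ITGA8- arrays, 1 bar per array, each panel with its own axis from 0. The left pair of panels is lowest in ITGA8+ cells (3561 and 882), the right pair in PDPN- cells (607 and 644).

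The genes 2-fold higher in PDPN+ and 2-fold lower in ITGA8+ cells were 320 of the 12799 above the floor in both comparisons (2.5%). Of the 10 genes 8 were above the floor in both, and 2 of these, Cyr61 and Amotl2, were among the 320. For Cyr61 this rests on the choice of probe set. The comparisons share no array. Mesothelial markers took the same course, with 9 of 12 lower in ITGA8+ cells and a summed intensity of 23141 in ITGA8+ cells and 50484 in ITGA8- cells. Of 12 stellate markers 7 were higher (51133 in ITGA8+ cells and 27316 in ITGA8- cells), as were 7 of 8 megakaryocyte markers (34304 and 14754) and 2 of 4 macrophage markers above the floor (1325 and 824 over 8). The stellate markers include Itga8, on which these cells were sorted, at 4354 in ITGA8+ cells and 871 in ITGA8- cells. Of 11 stress genes 3 were lower (41565 and 52575 over 12).

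Muscle genes had 2 higher and 1 lower of 8 above the floor (8036 in ITGA8+ cells and 12773 in ITGA8- cells over 9), and endothelial genes 1 each way of 8 (6765 and 6737). No hepatoblast marker (135370 and 108865) or erythroid marker (37207 and 28660) of 8 each was past 2-fold. Of the markers past 2-fold, Lrat (36), Gp6 (30), C1qb (54) and Actn2 (35) were under the floor in ITGA8- cells. Msln (48) and Cldn15 (9) were under it in ITGA8+ cells. Each entered only through the array where it was high. No listed marker was at 0. The part of any of these in the YAP and TEAD differences was not tested.

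ALCAM+ cells were set against unsorted liver cells, which shows how the genes went with the first sort. Over all genes above the floor the median log2 difference between these arrays was 0.90, or 1.87-fold, and differences are given relative to it. Of the 10 genes 7 were above the floor, and these 7 were at least 2-fold higher in ALCAM+ cells, against 15.5% of all 10982 genes, and 11.3% of all genes were lower. The 7 were Yap1, Wwtr1, Tead1, Tead2, Ctgf, Cyr61 and Amotl2, with a median of 1.81. Tead2 and Ctgf were above the floor in ALCAM+ cells only. The floor of 109.0 lay above the median of each array, 66 in ALCAM+ cells and 42 in liver cells. Tead3 (-0.33), Tead4 (-0.12) and Ankrd1 (-0.78), which it left out, had negative differences relative to the shift. The result of 7 out of 7 thus depends on the floor. Without a floor 7 of the 10 genes were past 2-fold, while 3214 of all 20678 genes were higher. The shift was then taken over all genes, and Tead3 was at 0.11, Tead4 at 0.32 and Ankrd1 at -0.35. As deposited, without taking the shift off, 94.5% of all genes past 2-fold were higher, against 57.9% relative to it.

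Yap1 was at 2144 in ALCAM+ cells and 411 in liver cells, 2.71-fold higher relative to the shift. Wwtr1 was at 1485 in ALCAM+ cells and 214 in liver cells, 3.50-fold higher, Tead1 at 1078 and 139, 3.78-fold, and Tead2 at 833 and 109, 3.64-fold. Both co-activator genes and the genes of both TEAD factors above the floor were thus past 2-fold.

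Among the targets, Ctgf was at 375 in ALCAM+ cells and 35 in liver cells, 4.11-fold higher, and the liver value was under the floor. Cyr61 was at 2476 in ALCAM+ cells and 446 in liver cells, 2.89-fold higher, and Amotl2 at 762 and 132, 2.82-fold. Tead3 (48 and 27), Tead4 (27 and 9) and Ankrd1 (23 and 20) were under the floor in both arrays.

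Other probe sets of Yap1, Wwtr1 and Tead1 gave smaller differences here. By probe set 8 of 12 above the floor were 2-fold higher, against 12.9% of all 17630, and 0 were lower, against 13.9%. The second probe set of Yap1 was at 100 in ALCAM+ cells and 31 in liver cells, under the floor in both, a log2 difference of 0.40. The second probe set of Tead1 was at 0.97 and the others of Wwtr1 at 0.87 and, under the floor, 0.78, all short of 2-fold. For Cyr61, probe set 1442340_x_at was at 0.37 and 1457823_at at 0.25, against 1.53 and 1.52 for the other pair.

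Of the markers above the floor, relative to the shift, all 10 mesothelial markers were higher in ALCAM+ cells (summed intensity of the 12 listed 17317 in ALCAM+ cells and 649 in liver cells), and all 8 erythroid markers were lower (9044 and 28512). Higher also were 6 of 9 stellate (9233 and 2693 over 12), 6 of 8 megakaryocyte (23911 and 6609), 4 of 6 muscle (6771 and 1052 over 9), 3 of 8 macrophage (7823 and 2577, with 1 lower), 1 of 7 hepatoblast (69108 and 42440 over 8) and 1 of 6 endothelial markers (3713 and 1593 over 8). Of 10 stress genes 1 was higher and 1 lower (34130 and 17938 over 12). Of the mesothelial markers counted, all but Gpm6a (132) were under the floor in liver cells and entered only through the ALCAM+ array. The same held for higher markers of other lists. In liver cells Itga8 was at 48, Colec11 at 36, Hand2 at 19, Des at 33, Gp6 at 41, Cd5l at 99 and Tnnt2 at 20. The summed intensities are as deposited, without the shift taken off. Relative to the shift the hepatoblast markers had a median of -0.14, although their sum was higher in ALCAM+ cells. No marker was at 0, and the part of the markers in the result was not tested.

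Other genes of the pathway were taken from 4 lists with 66 different genes, all measured. In PDPN+ against PDPN- cells 15 of the 57 above the floor were higher and 3 lower, against 19.9% and 7.89% of all genes. In ITGA8+ against ITGA8- cells 5 of 62 were higher and 3 lower, against 5.36% and 5.98%, and in ALCAM+ against liver cells 22 of 55 were higher and 0 lower, against 15.5% and 11.3%. Their medians were 0.42, -0.02 and 0.69 in that order, against 0.04, 0.00 and 0.00 over all genes.

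Of 17 upstream kinases and scaffolds, all above the floor, 2 were higher in PDPN+ cells and 0 lower (median 0.30), a smaller share than the 19.9% higher and 7.89% lower of all genes. Lats2, a kinase that phosphorylates YAP and is itself a YAP target, was at 5973 in PDPN+ cells and 2106 in PDPN- cells, 2.82-fold higher. Wwc2, a scaffold of the KIBRA family, was at 5328 in PDPN+ cells and 1523 in PDPN- cells, 3.47-fold higher. The core kinase genes stood closer, with Stk3 at 3738 in PDPN+ cells and 3027 in PDPN- cells, Stk4 at 7181 and 4843 and Lats1 at 1539 and 1401. None of the 17 was past 2-fold between ITGA8+ and ITGA8- cells (median -0.33), against 11.3% of all genes. Lats2 was there at 4924 in ITGA8+ cells and 5603 in ITGA8- cells.

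Of 18 polarity, junction and cytoplasmic partners, 3 were higher in PDPN+ cells and 1 lower (median 0.34), shares no larger than the 19.9% and 7.89% of all genes. Ptpn14, a phosphatase that binds YAP, was at 1949 in PDPN+ cells and 282 in PDPN- cells, 6.59-fold higher. The polarity gene Llgl1 was at 2075 in PDPN+ cells and 636 in PDPN- cells, 3.21-fold higher, and the protocadherin gene Dchs1 at 576 and 193, 2.83-fold higher. The apical polarity gene Crb3 was at 460 in PDPN+ cells and 1416 in PDPN- cells, 3.01-fold lower.

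In ITGA8+ against ITGA8- cells 3 of these 18 were higher and 0 lower (median 0.18), against 5.36% and 5.98% of all genes. All 3 lay near the 2-fold limit. Fat4, a giant protocadherin that pairs with Dchs1, was at 5108 in ITGA8+ cells and 2511 in ITGA8- cells, 2.03-fold higher. Dchs1 was at 1782 in ITGA8+ cells and 880 in ITGA8- cells, 2.01-fold higher, and the polarity gene Scrib at 1654 and 743, 2.20-fold higher. Fat4 was level in the other sort, at 786 in PDPN+ cells and 793 in PDPN- cells.

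Of 7 genes of TEAD co-factors and of factors that share them, 3 were above the floor in the PDPN sort. All 3 were higher in PDPN+ cells, against 19.9% of all genes. Vgll4, which competes with YAP for TEAD, was at 1884 in PDPN+ cells and 872 in PDPN- cells, 2.14-fold higher. Runx2, a factor of bone and mesenchyme, was at 1460 in PDPN+ cells and 146 in PDPN- cells, 9.11-fold higher, and Runx1, a blood cell factor, at 266 and 66, 3.44-fold higher with the PDPN- value under the floor. In ITGA8+ cells 2 of 6 were lower, against 5.98% of all genes. Vgll4 was at 436 in ITGA8+ cells and 1211 in ITGA8- cells, 2.71-fold lower, and Runx2 at 322 and 809, 2.44-fold lower. Vgll4 and Runx2 thus differed in the same direction as Amotl2 in both sorts.

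Of 28 other target genes, taken from signatures of YAP in cell lines, 23 were above the floor in the PDPN sort. Of these 9 were higher in PDPN+ cells and 2 lower (median 0.85), against 19.9% and 7.89% of all genes. Lats2 and Ptpn14, counted above, are among the 9. Thbs1, a matrix glycoprotein that platelets also hold, was at 3530 in PDPN+ cells and 145 in PDPN- cells, 22.0-fold higher, and the growth factor gene Tgfb2 at 3932 and 390, 9.72-fold higher. F3, tissue factor of coagulation, was at 480 in PDPN+ cells and 49 in PDPN- cells. The PDPN- value was under the floor, and the 7.63-fold difference was 9.62-fold with a pseudocount of 1 and 4.81-fold with 64. Smaller differences were those of Crim1, a transmembrane protein that binds BMPs (652 in PDPN+ cells and 163 in PDPN- cells, 3.73-fold), the receptor kinase gene Axl (2011 and 537, 3.67-fold), the RNA-binding protein gene Rbms3 (5842 and 2312, 2.52-fold) and the stress response gene Gadd45b (671 and 286, 2.27-fold).

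The 2 lower were Nt5e, the ectonucleotidase CD73, at 1199 in PDPN+ cells and 3630 in PDPN- cells, a log2 difference of -1.59, and Fjx1, a secreted protein gene, at 90, under the floor, and 197, a difference of -1.01. Between ITGA8+ and ITGA8- cells 2 of 25 were higher and 1 lower (median 0.13), against 5.36% and 5.98% of all genes. Tgfb1i1, which encodes the focal adhesion protein Hic-5, was at 1354 in ITGA8+ cells and 556 in ITGA8- cells, 2.40-fold higher, and Edn1, endothelin, at 118 and 37, 2.53-fold higher with the ITGA8- value under the floor. F3 was at 115 in ITGA8+ cells and 336 in ITGA8- cells, 2.69-fold lower. Axl, Crim1 and Rbms3 were within 2-fold in this sort.

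**Figure D4:**
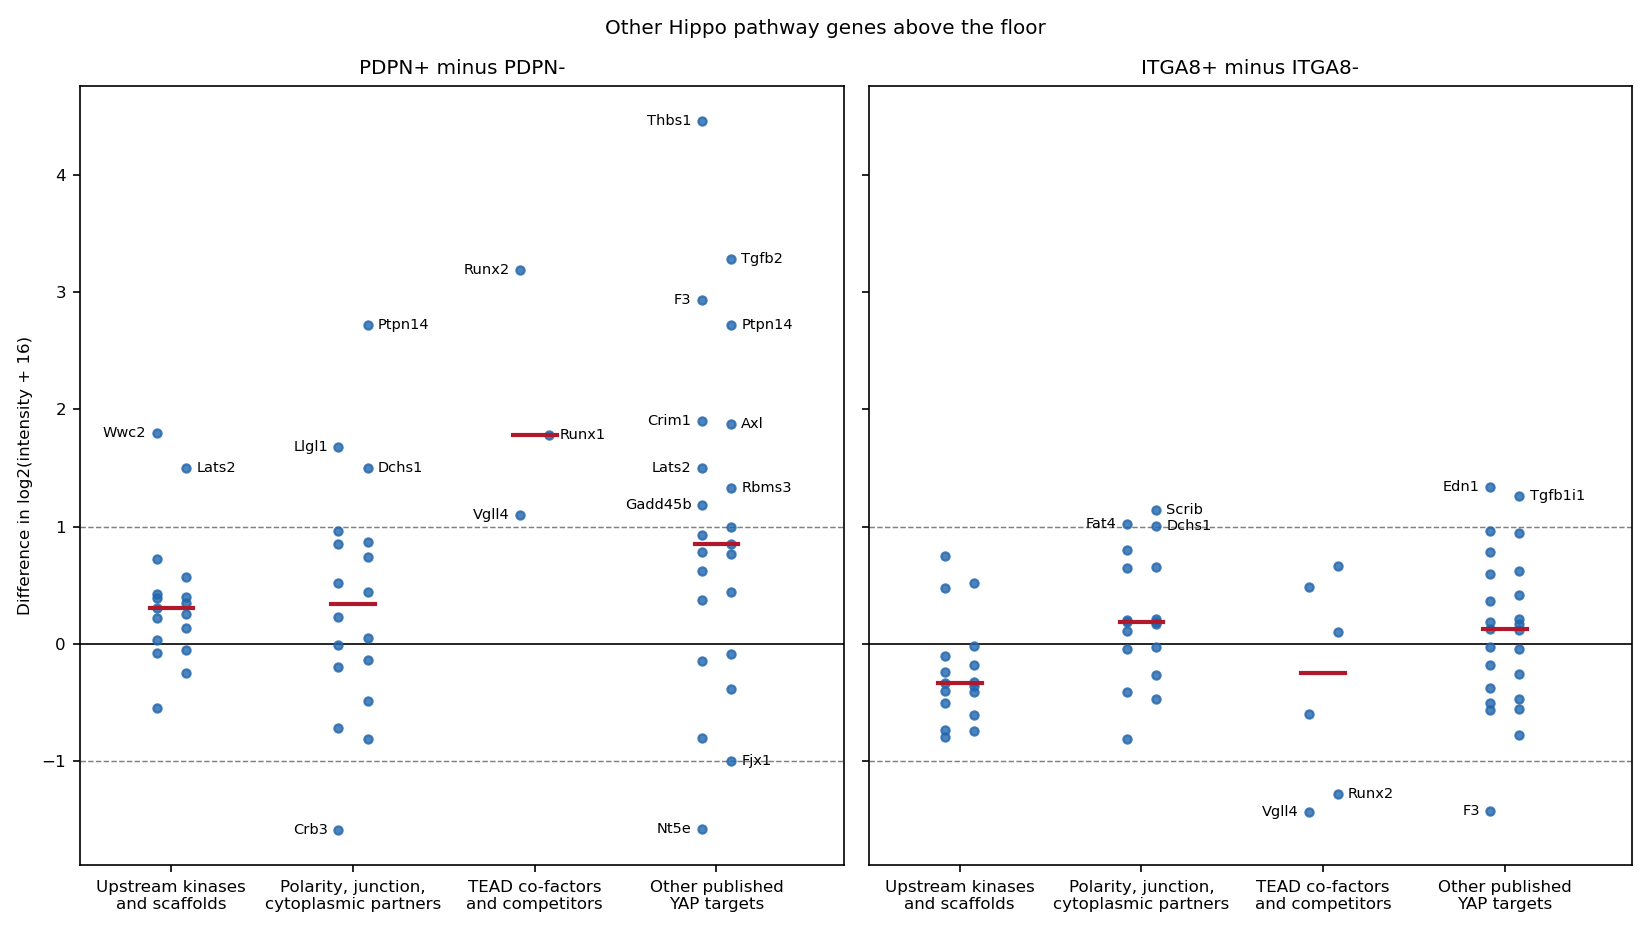
Difference in log2(intensity + 16) for genes of the 4 pathway lists above the floor, 1 point per gene, with red lines at the list median and dashed lines at 2-fold, and genes past 2-fold named. Genes in 2 lists are drawn in both. The other YAP targets reach up to Thbs1 at 4.46 in PDPN+ minus PDPN- and stay between F3 at -1.43 and Edn1 at 1.34 in ITGA8+ minus ITGA8-.

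In ALCAM+ against liver cells, 4 of 17 kinases and scaffolds were higher (Lats2, Wwc1, Wwc2 and Map4k4). So were 9 of 17 partners, 1 of 5 co-factors and 12 of 20 other targets, and 0 were lower in any list. Of all genes 15.5% were higher and 11.3% lower. Genes in 2 lists are counted in both. Of the 22 different genes higher, 13 were under the floor in liver cells, an array on a lower scale, and entered only through the ALCAM+ array where they were high, so their folds depend on the pseudocount. Fat4, at 21 in liver cells, was 6.04-fold higher in ALCAM+ cells, and its fold was 9.46 with a pseudocount of 1 and 3.20 with 64. Lats2 was at 1562 in ALCAM+ cells and 166 in liver cells, 4.65-fold higher, while Ajuba, a LIM protein that restrains the LATS kinases, was at 960 and 87, 5.08-fold higher, with the liver value under the floor.

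The genes most like each of the 10 in the 4 fractions were found by the Euclidean distance between log2 values centred on the gene's mean, over 4 arrays. Ctgf lay closest to Fam171b (0.04), Lfng (0.07), a modifier of Notch receptors, and Fbxl7 (0.13). Lfng was at 475 in PDPN+ cells, 31 in PDPN- cells, 370 in ITGA8+ cells and 598 in ITGA8- cells. The PDPN- values of Lfng and of Fam171b (18) were under the floor. Their distances depend on the pseudocount, as do those of other genes here with values under the floor. Amotl2 lay closest to Tbrg3 (0.21), Ccdc92 (0.23) and Gramd4 (0.24), and Cyr61 to Leprel4 (0.15), Pcgf5 (0.18) and D5Ertd255e (0.19). Wwtr1 was nearest to Ankrd37 (0.04), Zmiz1 (0.05) and Stom (0.05), and Tead1 to Arhgap8 (0.06), Apobec2 (0.07) and Fam188b (0.09). Tead2 was nearest to Agps, Atm and Cplane1 (0.05 each), Tead3 to A830082N09Rik (0.06), Dclk2 (0.10) and C230034O21Rik (0.14), and Ankrd1 to genes that included 1810021B22Rik (0.21) and Phlda1 (0.31). Each gene was taken by the probe set that stands for it, and other probe sets of Cyr61 and Wwtr1 ordered the fractions differently. None of the 10 genes was among the 3 nearest of another. With 14503 genes above the floor and 3 kept, this says little on whether the 10 vary alike.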

How the data were processed

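RNA (20 ng per sample, amplified and biotin-labelled) was hybridised to GeneChip Mouse Genome 430 2.0 arrays, per the labels' protocols. The deposited file holds each probe set's intensity as a whole number, not on a log scale. RMA and Partek were used, per the submitters' processing notes (version and genome build: not given in the sources used here). Each sample's source label set its group.

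Of 45101 probe sets, 64 controls, 5746 without a gene and 1280 naming several genes were left out. Values were used as log2(intensity + 16). The probe set with the highest mean over 6 arrays stood for its gene, which entered a comparison where the higher array exceeded the floor of 109.0. Differences past 2-fold were counted beside the share of all genes. The number of arrays limits the precision, and a fold below the floor depends on the pseudocount. Members and lists were chosen with earlier results of these data known. Genes named are the 10, list genes past 2-fold in either sort, the 3 nearest genes of each member that spanned 2-fold (1 is not reported here), and, chosen after their values were seen, Stk3, Stk4, Lats1 and the genes named only between ALCAM+ and liver cells. Alternatives were the pseudocount (1 or 64), quantile and loess normalisation, the median shift, the floor, the probe set and a 4-fold limit. The script was tested on simulated data. Python 3.11.15, pandas 2.3.3, numpy 2.4.6 and statsmodels 0.14.6 were used.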

Additional observations from a re-analysis of the deposited data

How the results depend on the processing

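No paired analysis was possible because each group had 1 array, and for the same reason no replicate could be left out. Of 264 alternative differences of the 10 genes, 257 kept their call, 5 lost it, 1 gained one and 1 called value turned. Of the 5 lost, 3 fell short of 2-fold (Ankrd1 in ITGA8+ minus ITGA8- at 0.88 with a pseudocount of 64, and Cyr61 at -0.59 there with the median of probe sets and at 0.29 in ALCAM+ minus liver without the probe sets named next), and 2 stayed past 2-fold but under the floor (Ankrd1 in ITGA8+ minus ITGA8-, at 1.35 with quantile normalisation and 1.29 with the doubled floor). The one gained was Ankrd1 in PDPN+ minus PDPN- without a floor, at -2.03 in both. Of values without a call 16 changed sign, and Tead4 in ALCAM+ minus liver, under the floor, was 1.05 with quantile normalisation against -0.12. The called value that turned was Cyr61 in ITGA8+ minus ITGA8-, at 0.15 with probe sets free of _s, _x or _a in their names. Using each other probe set, chosen after seeing the data, it was 0.12 and 0.15 on 2 of them, and Wwtr1 there was 1.04 on one, against -0.43.

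At 4-fold, genes past the limit numbered 1332 in PDPN+ minus PDPN-, 114 in ITGA8+ minus ITGA8- and 646 in ALCAM+ minus liver, against 3736, 1574 and 2936 at 2-fold. Of the 10 genes 2, 0 and 1 were past it, against 5, 3 and 7, and of the pathway genes 5, 0 and 7, against 18, 8 and 22. Without a floor 2429 genes passed 2-fold in ITGA8+ minus ITGA8- and 4504 in ALCAM+ minus liver. As deposited, 5277 genes and 42 pathway genes passed in ALCAM+ minus liver. With probe sets free of those suffixes 1 of the 10 passed in ITGA8+ minus ITGA8-. With quantile normalisation, genes higher in PDPN+ cells made up 59.5% of those past 2-fold, against 71.6%, and genes higher in ITGA8+ cells 60.2%, against 47.3%.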
